A study of Mus musculus with 3 samples.

Results

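The endoplasmic reticulum (ER) secretory pathway and the unfolded protein response (UPR) were examined in primary cultures of MMTV-PyMT mouse mammary tumor cells through 43 genes, which were chosen by their known function: ER chaperones, disulfide isomerases, ER-associated degradation (ERAD), the translocon, COPII coat, UPR sensors and transcription factors, and the secretory-cell factor Bhlha15. They were chosen with earlier results of these data known, so their shares against all genes are not an independent test. All 43 had a probe on the array that was well above background in all 6 channels, among 21743 genes and transcripts tested. In the MMTV-PyMT model, the mouse mammary tumor virus promoter drives the polyoma middle T oncogene in mammary epithelium. Cells of 3 tumors (1, 2 and 3) were grown in medium with serum, cholera toxin, insulin and EGF, and 1 culture of each tumor received RANK ligand (RL) for 24 h while 1 served as untreated control. The methods give the RL dose as 1 µg/mL and the labels as 1000 µg/ml. Both cultures of a tumor shared 1 two-color Agilent array, with RL in Cy3 for tumors 1 and 3 and in Cy5 for tumor 2, which makes the dye swap one between tumors, without a swap inside any tumor. The methods describe dye swaps for the RNA of every sample, whereas the labels give 1 orientation per tumor, and the labels were followed. A single slide and scan covered all 3 arrays, and 54.6% to 56.2% of probes in a channel were well above background. With a single culture per tumor and condition, p-values measure the spread of 3 tumors, which limma moderates by that of all genes. The main limma fit had 2 residual beside 6.90 prior degrees of freedom, so its p-values lean mainly on the spread of all genes.

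Proteins bound for secretion enter the ER through the Sec61 translocon, are folded by chaperones and disulfide isomerases, and leave in COPII vesicles, whereas proteins that fail to fold are returned to the cytosol and degraded by ERAD. When unfolded proteins build up, the sensors IRE1 (Ern1), PERK (Eif2ak3) and ATF6 (Atf6) are activated: IRE1 splices the Xbp1 mRNA into the form that encodes an active transcription factor, PERK raises translation of ATF4, and ATF6 is cleaved to release a transcription factor. In the mammary gland, XBP1 and MIST1, the product of Bhlha15, are known for their part in building the secretory apparatus of milk-producing cells.

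Bhlha15, Xbp1, Derl3 and Dnajb9 had the largest negative mean log2 ratios of RL over control among the 43 genes. They were below 0 in every tumor, which with median centering in place of loess held for Bhlha15 alone. In that setting the all-gene median itself was -0.41, 0.43 and -0.35 in tumors 1, 2 and 3, below 0 where RL was in Cy3. The main ER chaperones lay near 0 on average with loess. With median centering, Hspa5, Hsp90b1, Calr and Canx lay between -0.35 and -0.27, where the all-gene median was -0.11. In limma's fit across all genes, 0 of the 43 genes passed an adjusted p of 0.05 in either direction, against 0.023% of all genes lower and 0.0046% higher. At an unadjusted p under 0.05, 7 of the 43 (16.3%) were lower and 0 higher, against 3.56% and 3.61% of all genes. With a dye term in the same limma model, 4 of the 43 (9.30%) fell, namely Bhlha15, Xbp1, Derl3 and Dnajb9, and 0 rose, against 0.791% and 0.598% of all genes. This model had 1 residual degree of freedom beside 32.4 prior degrees of freedom, so its p-values lean mainly on the spread of all genes. Without tumor 2, 5 of the 43 fell in limma (the same 4 and Atf4) and 0 rose, against 4.08% of all genes lower and 2.75% higher. RL was in Cy3 on both arrays that were left, where dye and RL cannot be told apart. By rank product, with a proportion of false positives (pfp) under 0.05, 2 of the 43 (4.65%) were lower, Bhlha15 and Xbp1, and 0 were higher, against 0.207% and 0.147% of all genes. With 3 ratios, an exact two-sided sign-flip test of a single gene cannot give a p below 0.25.

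Of the 43 genes, 13 (30.2%) were below 0 on all 3 arrays and 4 (9.30%) above 0 on all 3, where the shares over all genes with 3 values were 13.3% and 14.2%. With median centering, where the all-gene median was above 0 in tumor 2 only, these member counts were 1 (Bhlha15) and 0. Without tumor 2, they were 26 and 7 on both arrays that were left. The median log2 ratio of the 43 genes was -0.07, with -0.12, -0.01 and -0.05 in tumors 1, 2 and 3, and the median over all genes was 0.00. With median centering, the all-gene median was -0.11 and that of the 43 genes -0.25, a difference of -0.14, and all 11 genes with a mean above 0 turned to below 0. Several of them also did so under other settings. Bhlha15, Xbp1, Derl3 and Dnajb9 were named as the most negative of the 43 genes. The list's median is nearer 0 than theirs by construction, and no conclusion is drawn from it. In these bulk RNA samples, fewer cells of a type and less RNA per cell cannot be told apart.

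**Figure D1:**
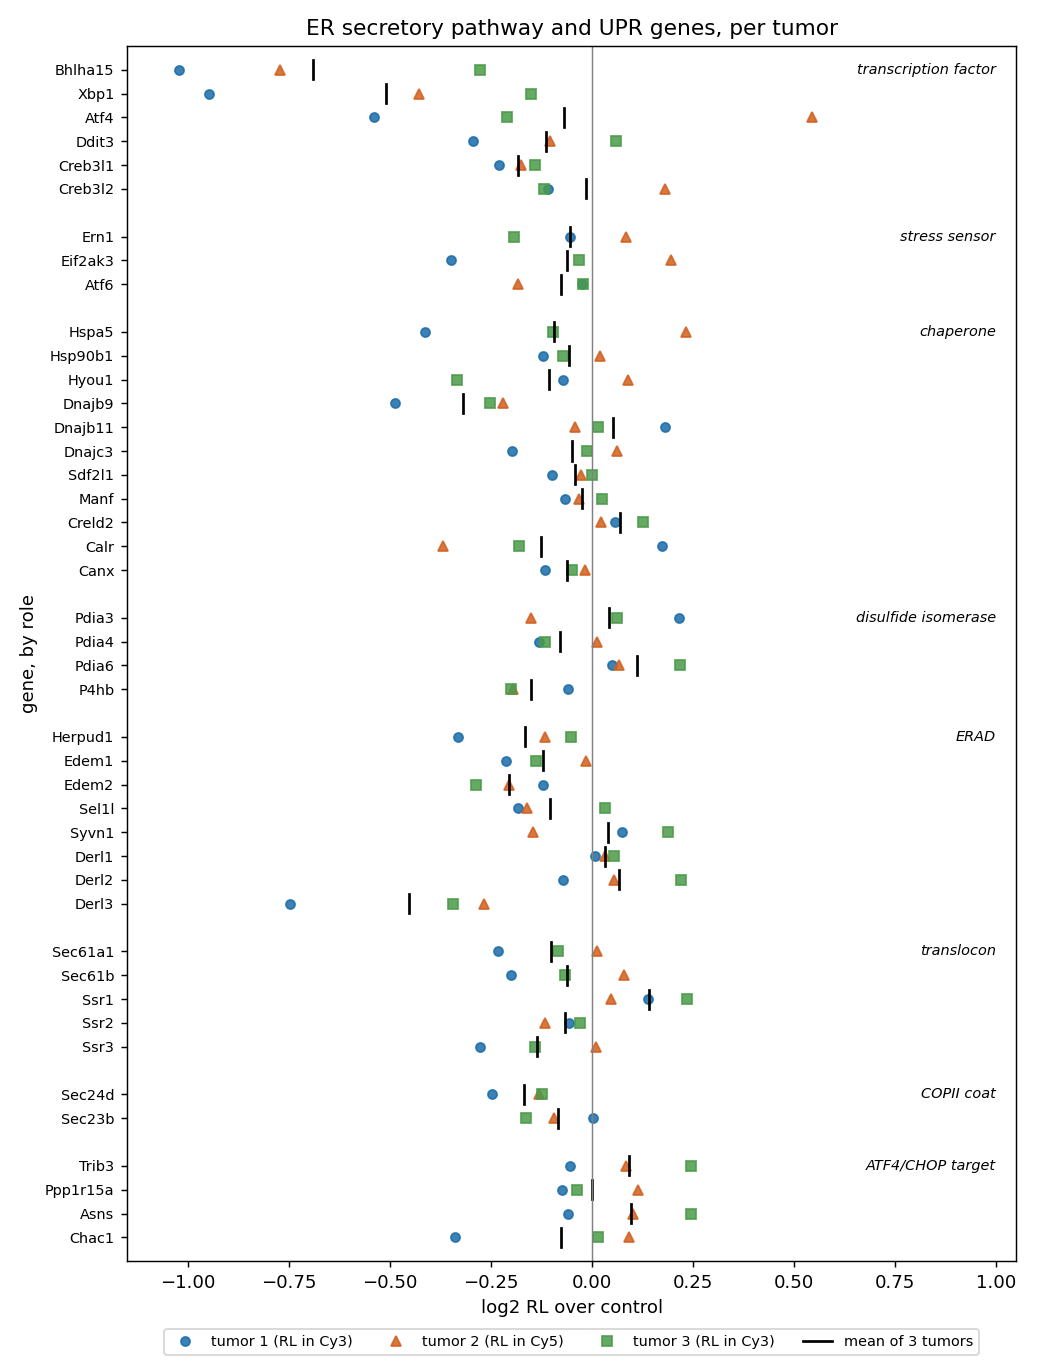
Log2 ratio of RL over control (x axis) of the 43 genes, ordered by role (y axis). Each symbol is 1 tumor and the black bar is the mean of 3 tumors; Bhlha15, Xbp1, Derl3 and Dnajb9 lie left of 0 in every tumor (with median centering Bhlha15 alone), while Atf4 lies at 0.54 in tumor 2 and below 0 in the other two.

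Of the 6 transcription factors, 3 were below 0 on all 3 arrays and 0 above 0, with a median log2 ratio of -0.15. Bhlha15, the basic helix-loop-helix factor of professional secretory cells, had a normalized log2 intensity of 11.00 in the control and 9.97 in the RL culture of tumor 1, 9.72 and 8.94 in tumor 2, and 7.78 and 7.51 in tumor 3. Its level was highest in tumor 1 and lowest in tumor 3 in both conditions, and the RL and control values overlapped between tumors although each RL culture was below its own control. The log2 ratios were -1.02, -0.77 and -0.28, with a mean of -0.69 ± 0.22 (SE of the ratios, n = 3 tumors). The moderated SE of limma, which borrows from the spread of all genes and underlies its p-values, was 0.12. The adjusted p of limma was 0.182, and 6.66e-06 in limma with the dye term, the lowest of a range up to 1.00 over the alternatives in limma. The pfp was 0.00411.

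Xbp1, which encodes the factor activated by IRE1 splicing, had log2 intensities of 16.72 in the control and 15.78 in the RL culture of tumor 1, 16.07 and 15.64 in tumor 2, and 15.47 and 15.32 in tumor 3. As for Bhlha15, tumor 1 had the highest control level and the largest difference, tumor 3 the lowest level and the smallest difference, and the values of both conditions overlapped between tumors. The log2 ratios were -0.95, -0.43 and -0.15, with a mean of -0.51 ± 0.23 (SE; moderated SE of limma 0.13), an adjusted p of 0.379 in limma and 0.00256 in limma with the dye term (range over alternatives 0.000954 to 1.00). Without tumor 1 the mean was -0.29. The single Xbp1 probe was not examined for the spliced and unspliced forms, so these values describe total Xbp1 RNA at the probe.

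Of the other 4 transcription factors, 1 was below 0 on all arrays: Creb3l1, an ER-bound factor linked to secretory and matrix genes, with -0.23, -0.18 and -0.14 and an adjusted p of 0.628 in limma. Atf4, the effector of PERK and of the wider integrated stress response, had -0.54, 0.54 and -0.21, with a fitted dye effect of 0.46 and a ratio of 0.09 once the dye term was included. Since tumor 2 alone has RL in Cy5, dye and tumor cannot be told apart here. Its second probe gave -0.07, 0.08 and 0.01. Ddit3, which encodes CHOP, had a mean of -0.11 and Creb3l2 of -0.02, the latter with 0.03 in the dye term model.

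**Figure D2:**
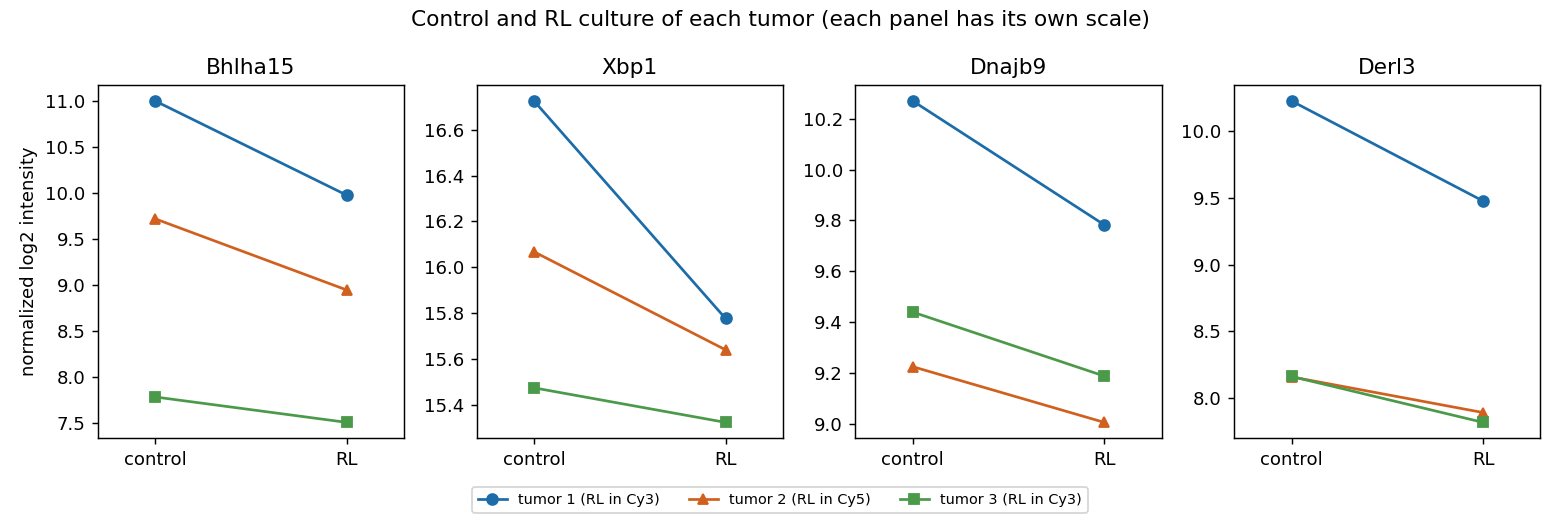
Normalized log2 intensity (y axis, 1 scale per panel) of Bhlha15, Xbp1, Dnajb9 and Derl3 in the control and the RL culture of each tumor (x axis); a line joins both cultures of a tumor. Every line slopes down, which with median centering fails in tumor 2 for Xbp1, Dnajb9 and Derl3, and the line of tumor 1 starts highest in all 4 panels.

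The 3 sensors had mean log2 ratios of -0.05 (Ern1), -0.06 (Eif2ak3) and -0.08 (Atf6). Ern1 and Eif2ak3 were above 0 in tumor 2 and below 0 in tumors 1 and 3, and Atf6 was below 0 in all 3, at -0.03, -0.18 and -0.02. The 4 targets of ATF4 and CHOP had mixed signs and a median of 0.05, and the 3 means at or above 0 turned negative with median centering. Trib3, a pseudokinase, had -0.05, 0.08 and 0.25, and Asns, the asparagine synthetase, -0.06, 0.10 and 0.25. Chac1, a glutathione-degrading enzyme, had -0.34, 0.09 and 0.02, and Ppp1r15a, the phosphatase subunit that reverses the PERK signal, had a mean of 0.00. None of the 7 genes passed an unadjusted p of 0.05.

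Among the 11 chaperones and cofactors, Dnajb9, an HSP40 cochaperone of BiP and a known XBP1 target, had the most negative mean. Its log2 intensities were 10.27 in the control and 9.78 in the RL culture of tumor 1, 9.22 and 9.0 in tumor 2, and 9.44 and 9.19 in tumor 3. The RL culture was lower in every tumor, with overlap between tumors. The log2 ratios of -0.49, -0.22 and -0.25 gave a mean of -0.32 ± 0.08 (SE; moderated SE of limma also 0.08), with an adjusted p of 0.367 in limma and 0.0365 in limma with the dye term (range over alternatives 0.00579 to 1.00). A second Dnajb9 probe gave -0.37, -0.16 and 0.09 and so differed in sign in tumor 3.

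The abundant chaperones were close to 0 on average with loess and differed between tumors. Hspa5, the BiP chaperone, had -0.41, 0.23 and -0.10. Hsp90b1, the ER form of HSP90, had -0.12, 0.02 and -0.07. Calr, the lectin chaperone calreticulin, had 0.17, -0.37 and -0.18, opposite in sign to Hspa5 in tumors 1 and 2. The mean of Calr, -0.12, was -0.27 without tumor 1 and -0.003 without tumor 2. With median centering, the means of Hspa5, Hsp90b1 and Calr were -0.33, -0.27 and -0.35. The means of Hyou1, Dnajb11, Dnajc3, Sdf2l1, Manf, Creld2 and Canx lay between -0.11 and 0.07, and of these Canx was below 0 on all 3 arrays and Creld2 above 0 on all 3, though at -0.13 on average with median centering. A second probe of Dnajb11 was not well above background and was not used.

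Of the 4 disulfide isomerases, P4hb had -0.06, -0.20 and -0.20, and Pdia6 had 0.05, 0.07 and 0.22 with a mean that turned to -0.13 with median centering. A second Pdia6 probe gave -0.15, 0.20 and -0.10, so its direction was not shared between probes. Pdia3 and Pdia4 had means of 0.04 and -0.08.

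Of the 8 ERAD genes, 4 were below 0 and 1 above 0 on all 3 arrays, with a median log2 ratio of -0.11. Derl3, a derlin of the retrotranslocation channel that is abundant in secretory cells, had log2 intensities of 10.22 in the control and 9.47 in the RL culture of tumor 1, 8.16 and 7.89 in tumor 2, and 8.16 and 7.82 in tumor 3. Tumor 1 had the highest level and the largest difference, and its RL culture was above both controls of the other tumors. The log2 ratios were -0.75, -0.27 and -0.34, with a mean of -0.45 ± 0.15 (SE; moderated SE of limma 0.10), an adjusted p of 0.270 in limma and 0.00284 in limma with the dye term (range over alternatives 0.000127 to 1.00). The related derlins had means of 0.03 for Derl1 and 0.07 for Derl2, which turned to -0.14 and -0.15 with median centering, where Derl3 was at -0.62. Their other probes had mixed signs, with -0.02, -0.09 and 0.05 for Derl1. Edem2, which trims mannose from misfolded glycoproteins, had -0.12, -0.21 and -0.29 (unadjusted p = 0.0185 and adjusted p = 0.567 in limma). Herpud1, a scaffold of the ERAD ligase, had -0.33, -0.12 and -0.05, and Edem1 had -0.21, -0.01 and -0.14. The ligase pair Sel1l and Syvn1 had means of -0.10 and 0.04.

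At the translocon, Ssr1, a subunit of the translocon-associated protein complex, had the largest positive mean of the 43 genes, with 0.14, 0.05 and 0.24, which turned to -0.02 on average with median centering. Its 2 other probes did not share this, with -0.36, 0.24 and -0.19 for one and -0.15, -0.06 and 0.06 for the other, and the mean over its probes was 0.00. Sec61a1, Sec61b, Ssr2 and Ssr3 had means between -0.13 and -0.06, and the second probes of Sec61b and Ssr3 gave -0.07, -0.05 and 0.09, and -0.20, 0.03 and -0.07. In the COPII coat, Sec24d, a cargo adaptor, had -0.25, -0.13 and -0.12 (unadjusted p = 0.0404 and adjusted p = 0.686 in limma), and Sec23b had a mean of -0.08.

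Taken across the 43 genes, none of which is a replicate of another, the log2 ratios of tumors 1 and 3 correlated with r = 0.504, tumors 1 and 2 with 0.320 and tumors 2 and 3 with 0.290. Over all genes these values were 0.452, -0.110 and -0.106. The values of the 43 genes include Bhlha15, Xbp1, Derl3 and Dnajb9, the most negative, and were not computed without them. Among the others, signs in tumors 1 and 2 were opposite for Atf4, Hspa5, Eif2ak3, Calr and Pdia3, and shared for Creb3l1, Edem2 and Sec24d. Tumors 1 and 3 share the dye orientation, and tumor 2 has the other. Bhlha15, Xbp1, Derl3 and Dnajb9 lay below 0 in both orientations in the plot of change by dye orientation. With median centering, the all-gene median was -0.41, 0.43 and -0.35 in tumors 1, 2 and 3. Bhlha15 was then at -1.47, -0.35 and -0.52. Xbp1 was at -1.83, 0.46 and -0.83. Derl3 was at -1.26, 0.12 and -0.71, and Dnajb9 at -0.99, 0.23 and -0.67. In tumor 2, Bhlha15, Derl3 and Dnajb9 were thus below the all-gene median of that setting and Xbp1 was not. Median centering holds no correction by intensity. In tumor 2 the members nearest to Xbp1 in intensity were above its 0.46, at 1.40 (Atf4), 1.07 (Hspa5), 0.94 (Pdia6) and 0.92 (Sec61b).

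**Figure D3:**
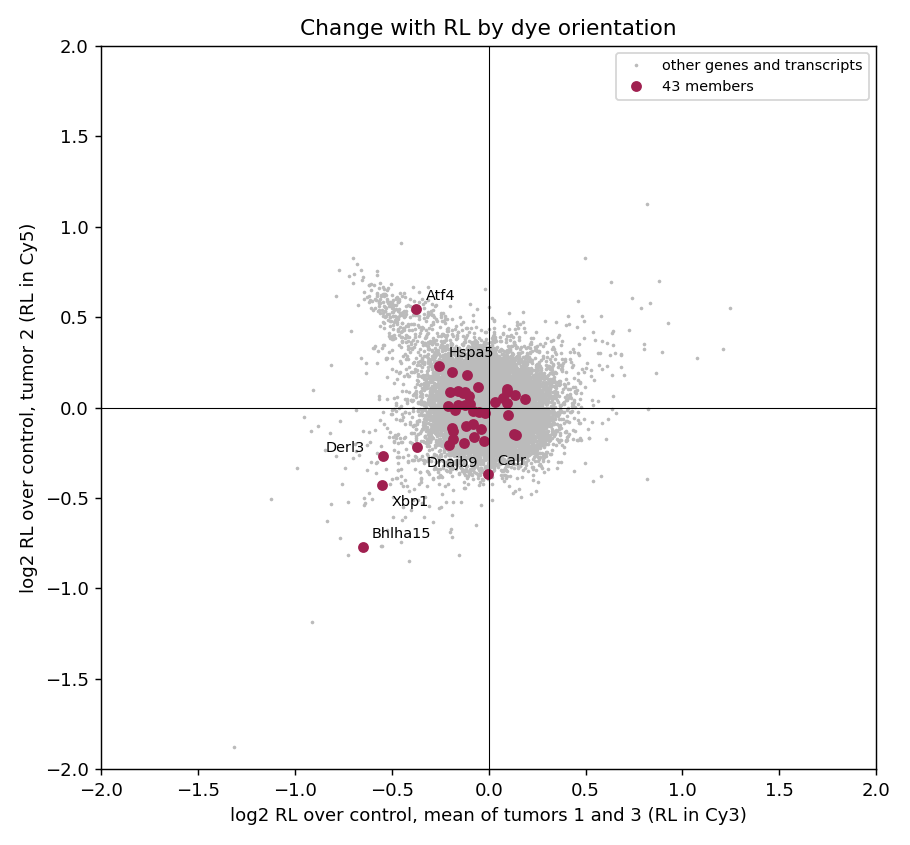
Log2 ratio of RL over control of each gene in tumor 2, with RL in Cy5 (y axis), against its mean in tumors 1 and 3, with RL in Cy3 (x axis). Bhlha15, Xbp1, Derl3 and Dnajb9 lie in the lower left quadrant (with median centering Bhlha15 alone), whereas Atf4 lies in the upper left, above 0 in tumor 2 and below 0 in the mean of tumors 1 and 3.

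Sequence near the gene starts was examined because these genes include known targets of ATF6, XBP1 and ATF4. RefSeq promoter windows of build GRCm38.p6, from 250 bases before to 50 after the start, were found for 36 of the 43 genes, with 38 windows. Both strands were searched for the ER stress response element (ERSE; CCAAT and CCACG 9 bases apart), ERSE-II (ATTGG and CCACG 1 base apart), the UPR element TGACGTGG and the amino acid response type element TGATGNAA. The ERSE motifs and the UPR element can overlap in their CCACG or CACG part. An ERSE was present in the windows of 9 of 36 genes, Hspa5, Hsp90b1, Dnajc3, Creld2, Calr, Canx, Pdia6, Syvn1 and Derl3, and in 0.119% of all 32851 windows. ERSE-II was present for Dnajb11 and Herpud1 (0.0365% of all windows), the UPR element for Sec24d (0.676%) and TGATGNAA for Herpud1, Trib3, Asns and Chac1 (3.97%). Windows of Creb3l1, Atf6, Hyou1, Manf, Derl1, Sec61a1 and Ssr2 were not used here. A match describes letters only, and no match says only that the letters are not in this window.

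Of the 9 genes with an ERSE, Derl3 was the 1 with a negative ratio past the dye term threshold. Windows of the 4 genes with the largest decreases and of Hspa5, which was near 0 on average with loess, are given to set Derl3, which has an ERSE, beside those that have none of the motifs. Capitals mark an ERSE, which lies from base -156 to -138 relative to the start in Derl3 (minus strand of the window) and from -65 to -47 in Hspa5.
Derl3, chr10:75893148-75893447, plus strand: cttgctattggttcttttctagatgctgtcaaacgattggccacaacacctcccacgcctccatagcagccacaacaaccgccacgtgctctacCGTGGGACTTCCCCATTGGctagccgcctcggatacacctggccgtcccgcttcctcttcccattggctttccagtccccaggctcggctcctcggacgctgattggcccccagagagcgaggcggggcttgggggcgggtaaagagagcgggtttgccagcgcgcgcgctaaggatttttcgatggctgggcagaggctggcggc
Hspa5, chr2:34771840-34772139, plus strand: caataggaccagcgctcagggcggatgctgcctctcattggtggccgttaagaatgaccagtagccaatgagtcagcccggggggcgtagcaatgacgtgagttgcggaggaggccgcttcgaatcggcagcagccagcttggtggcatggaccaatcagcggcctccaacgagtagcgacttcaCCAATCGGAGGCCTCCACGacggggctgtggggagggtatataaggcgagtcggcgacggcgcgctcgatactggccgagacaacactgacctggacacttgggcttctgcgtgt
Bhlha15, chr5:144190036-144190335, plus strand: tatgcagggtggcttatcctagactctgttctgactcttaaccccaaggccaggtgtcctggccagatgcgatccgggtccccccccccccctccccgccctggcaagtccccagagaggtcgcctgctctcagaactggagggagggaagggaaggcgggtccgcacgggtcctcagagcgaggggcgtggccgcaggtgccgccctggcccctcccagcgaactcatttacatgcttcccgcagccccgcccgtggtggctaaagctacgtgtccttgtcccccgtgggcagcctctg
Xbp1, chr11:5520391-5520690, plus strand: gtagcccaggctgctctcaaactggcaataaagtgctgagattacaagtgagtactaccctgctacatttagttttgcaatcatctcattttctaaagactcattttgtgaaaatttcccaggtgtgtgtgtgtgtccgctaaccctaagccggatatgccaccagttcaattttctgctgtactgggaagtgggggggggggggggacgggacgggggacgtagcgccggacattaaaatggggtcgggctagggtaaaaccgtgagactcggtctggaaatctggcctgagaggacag
Dnajb9, chr12:44210019-44210318, minus strand: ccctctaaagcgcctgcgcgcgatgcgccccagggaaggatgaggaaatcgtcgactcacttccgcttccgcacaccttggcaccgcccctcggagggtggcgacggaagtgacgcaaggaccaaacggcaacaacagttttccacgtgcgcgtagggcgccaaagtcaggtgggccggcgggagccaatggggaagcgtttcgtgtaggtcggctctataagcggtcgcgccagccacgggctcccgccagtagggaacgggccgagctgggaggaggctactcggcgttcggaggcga

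Other genes of the pathway came from lists of folding, glycosylation, ERAD, translocation, ER to Golgi transport and UPR genes, of which 120 of 123 were tested. Of these, 0 passed an adjusted p of 0.05 in limma and 0 the rank product threshold, with 4 lower (3.33%, against 3.56% of all genes) and 1 higher at an unadjusted p under 0.05. On all 3 arrays 29 (24.2%) were below 0 and 7 (5.83%) above 0, against 13.3% and 14.2% of all genes. The median log2 ratio of the 120 genes was -0.05, with -0.06, -0.04 and 0.01 in the 3 tumors. By list the medians were -0.03 for folding, -0.03 for glycosylation, -0.01 for ERAD, -0.07 for translocation, -0.05 for transport and -0.06 for other UPR genes. Clgn, Creb3l3 and Ern2 were not well above background. With the dye term, 1 of the 120 fell (0.833%) and 1 rose, near the 0.791% and 0.598% of all genes. The 1 that fell was Srpr, the receptor of the signal recognition particle, with -0.11, -0.35 and -0.51 (adjusted p = 0.405 in limma and 0.0192 in limma with the dye term). The 1 that rose was Tram2, a translocon-associated protein, with 0.40, 0.21 and 0.36 (adjusted p = 0.311 in limma and 0.0281 in limma with the dye term). Ero1b, an oxidase that drives disulfide formation and is found in secretory cells, had -0.35, -0.21 and -0.27 and an adjusted p of 0.374 in limma and 0.0742 in limma with the dye term. The coatomer subunit Copa had -0.07, -0.30 and -0.28. Ube2j1, an ERAD ubiquitin-conjugating enzyme, had 0.19, 0.03 and 0.28. The transport genes Tmed3 and Sec24b had means of -0.19 and 0.10, and the folding and glycan-trimming genes Dnajb12 and Ganab 0.10 and 0.12. With median centering, Ube2j1, Sec24b, Dnajb12 and Ganab turned to below 0, Tram2 did not.

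The 27 further targets of the integrated stress response were all tested. On all 3 arrays 9 (33.3%) were below 0 and 3 (11.1%) above 0, against 13.3% and 14.2% of all genes. None of the 27 passed an adjusted p of 0.05 in limma, with or without the dye term, or the rank product threshold. At an unadjusted p under 0.05 in limma, 3 (11.1%) were lower and 0 higher, against 3.56% and 3.61% of all genes. Slc7a5, an amino acid transporter, had a mean of -0.23, Gpt2 of -0.19 and Nupr1 of -0.19, whereas the aminoacyl-tRNA synthetases Gars and Wars had 0.15 and 0.12 and Atf3 0.11, all 3 below 0 with median centering. The 4 known targets of MIST1 (Rab3d, Rab26, Gjb1 and Atp2c2) had negative means, from -0.25 for Atp2c2 to -0.12 for Rab26. Of these 4, chosen with earlier results of these data known, 3 were below 0 on all 3 arrays, where the share over all genes was 13.3%. For the lists beside the members, counts on all 3 arrays were not repeated with median centering. None of the 4 passed an adjusted p of 0.05 in limma, with or without the dye term, or the rank product threshold, and 1 was lower at an unadjusted p under 0.05.

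As the main secreted cargo of mammary epithelium, milk genes were also examined. Of 8 tested genes for milk proteins and milk fat globule proteins, 7 (87.5%) were below 0 on all 3 arrays, against 13.3% of all genes. The median of the milk list was -0.35 (-0.44, -0.37 and -0.56 in tumors 1, 2 and 3, where its summed intensity had -1.10, -0.24 and -0.52). Against 0.023% of all genes, 3 of the 8 fell at an adjusted p under 0.05 in limma. These were Lalba, at -1.50, and Wap and Csn1s1, which were named after their values were seen. With the scanner software's own processed signals, with median centering and with RL and control channels taken as unpaired, 0 of all genes were lower at that threshold in limma, so these 3 calls were lost. Btn1a1 had mixed signs, with -0.47, 0.51 and -0.49. All 8 genes of the RL response list (Nfkb2, Relb, Nfkbia, Nfkbie, Birc3, Traf1, Icam1 and Ubd) were above 0 on all 3 arrays, against 14.2% of all genes. The milk and RL response lists were both chosen with earlier results of these data known, so their counts are not independent support. The list's median was 0.66, with 1.15, 0.47 and 0.31 in tumors 1, 2 and 3. In limma, 1 of the 8 rose at an adjusted p under 0.05, against 0.0046% of all genes. That call was also lost with processed signals, median centering and unpaired channels, where 0 of all genes were higher. Tumor 1 had the highest median of this list and the most negative ratios of Bhlha15, Xbp1, Derl3 and Dnajb9. For the milk list, the median was most negative in tumor 3 and the summed intensity in tumor 1. These relations were not tested.

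**Figure D4:**
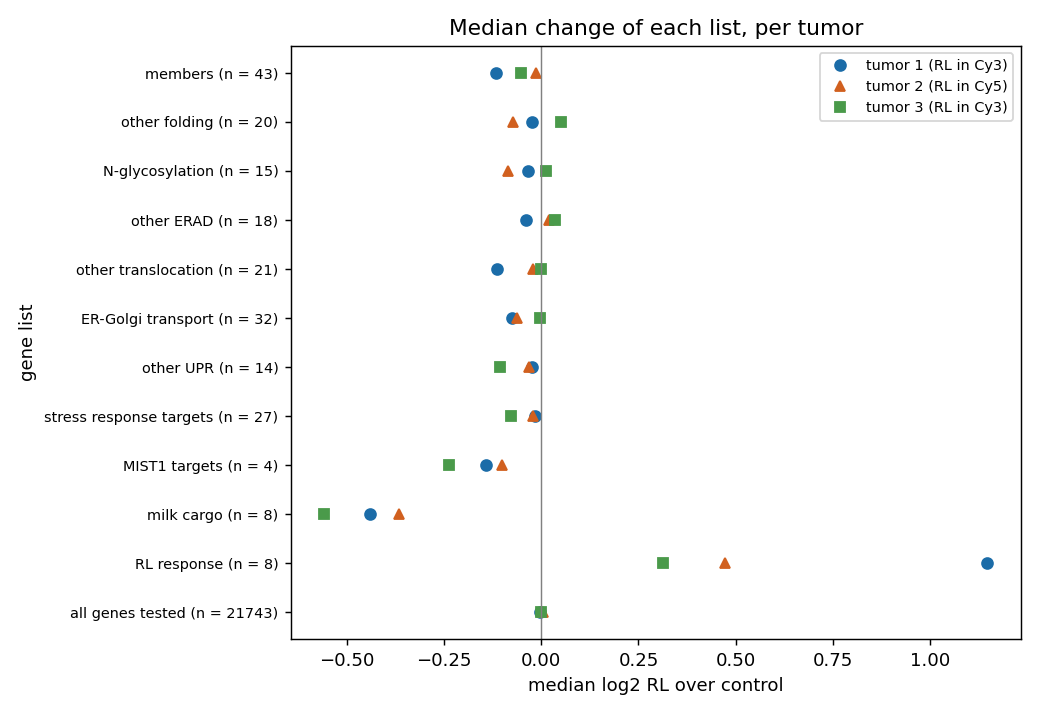
Median log2 ratio of RL over control (x axis) of each gene list (y axis, with the number of genes tested) in each tumor. The 43 genes and the other ER lists lie between -0.12 and 0.05 in every tumor, the milk cargo list at -0.37 or lower and the RL response list at 0.31 or higher.

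Markers of other cell types were examined because Xbp1, Bhlha15 and Derl3 are also abundant in plasma cells. Of 8 plasma cell markers, 3 were tested (Prdm1, Pou2af1 and Sdc1, the last of which epithelium also expresses). Jchain, Mzb1, Irf4, Tnfrsf17 and Cd79a were not well above background. The summed intensity of the 3 tested markers, led by Sdc1, had log2 ratios of 0.04, 0.05 and -0.27, and their gene medians were -0.34, -0.04 and -0.09 (-0.05 over the means). Sdc1 had 0.07, 0.06 and -0.28, Prdm1 had -0.34, -0.04 and 0.29, and Pou2af1, a B-lineage cofactor, had -0.53, -0.05 and -0.09. The summed intensity of the 10 luminal markers, led by Krt18, had log2 ratios of -0.22, 0.13 and -0.33. The medians of these genes were 0.20, -0.18 and -0.05, opposite in sign to the sums in tumors 1 and 2 (-0.02 over the means). That of the 5 basal markers, led by Krt14, had 0.03, -0.13 and -0.41, with gene medians of 0.04, 0.01 and -0.05 (-0.12 over the means). Luminal and basal epithelial markers were thus present in both conditions. The 8 fibroblast markers, led by Col1a1, had -0.28, 0.10 and -0.03, with gene medians of -0.29, 0.13 and -0.05 (-0.05 over the means). The 8 myeloid markers, led by Cd14, had 0.39, -0.03 and -0.03, with gene medians of -0.10, -0.08 and -0.02 (0.00 over the means). Among the myeloid markers, Cd14 had 0.56, -0.18 and 0.06, whereas Cd68 (-0.34, -0.14 and -0.18) and Tyrobp (-0.22, -0.15 and -0.09, named after its values were seen) were below 0 on all 3 arrays. The rest (Ptprc, Csf1r, Adgre1, Itgam and Lyz2) had mixed signs, with means from -0.09 (Lyz2) to 0.05 (Ptprc). Of the other lists, 2 of 5 T cell, 2 of 5 endothelial and 1 of 4 adipocyte markers were tested, with median ratios of -0.02, 0.00 and 0.16. Krt18 had -0.72, 0.42 and -0.70, where dye and tumor cannot be told apart. The part of these cell types in the decreases of Bhlha15, Xbp1, Derl3 and Dnajb9 was not tested.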

How the data were processed

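RNA of 6 cultures (RL and control of 3 tumors) was measured on 3 two-color arrays. The authors extracted spot intensities by means of Feature Extraction software (Agilent, version 10.7.3.1), and the deposited median intensities are uncorrected. The authors describe log2 ratios relative to control. Set against the scanner values, the columns of their table ran Cy5 over Cy3, which is control over RL for tumors 1 and 3, and were turned to RL over control. Over spots, r was 0.881, 0.874 and 0.881 with slopes of 1.40, 1.59 and 1.49. Over genes, r was 0.962, 0.956 and 0.962 with slopes of 1.15, 1.17 and 1.15. The column medians were 0.00, and any further scaling is not known. The software's processed intensities, deposited in the same files, served as an alternative. Per the file headers, the array design is based on another genome build than the RefSeq table used for names (GRCm38.p6), so array coordinates were not used.

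In R 4.3.3 and limma 3.58.1, background was corrected by normexp (offset 50), ratios were normalized by intensity loess and by spatial loess (span 0.1), and arrays by Aquantile. Outlier spots (204, 195 and 223) and control spots were left out. Accessions matched 28026 of 55681 probes. A probe was kept when all 3 RL or all 3 control signals were well above background (29429 probes), and the brightest represented a gene. Of the 43 genes, 9 had 2 or more probes. The log2 ratio of RL over control, which pairs the cultures by tumor, was fitted by lmFit, then eBayes, with 2 residual degrees of freedom and a prior of 6.90, across all genes with Benjamini-Hochberg adjustment, threshold 0.05. The code was tested on simulated data. The pfp came from a gamma approximation of the rank product.

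The members and gene lists were chosen with earlier results of these data known. Every member is accounted for. From the other pathway lists the 8 largest mean rises and the 8 largest falls with 1 sign on all arrays were named, with any gene past the threshold in limma with or without the dye term. Milk, RL response and marker lists are given by counts and medians. Summed intensities are given for the milk, plasma cell, luminal, basal, fibroblast and myeloid lists. The lowest and highest mean changes were named for the milk, plasma cell and myeloid lists, and the lowest for the luminal list. Wap, Csn1s1, Tyrobp and the remaining myeloid markers were named after their values were seen. The genes of the RL response list are given by name. Alternatives were the dye term, rank product, unadjusted p, eBayes with trend and robust moderation, no background correction, processed signals, no spatial loess, median centering, no Aquantile, other probe filters, the mean over probes, the authors' ratios, unpaired channels, and each tumor left out.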

Additional observations from a re-analysis of the deposited data

How the results depend on the processing

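Bhlha15, Xbp1, Derl3 and Dnajb9 had negative mean ratios under all 15 refits of their value, from -0.90 to -0.52, -0.73 to -0.29, -0.62 to -0.30 and -0.48 to -0.23. The value nearest 0 came without tumor 1 for Bhlha15, Xbp1 and Derl3, and with the mean over probes for Dnajb9. Their adjusted p in limma was under 0.05 with the dye term and without tumor 2 only. Of the 645 values of the 43 genes over these refits, 34 had another sign than reported, in 20 genes. The cause was not tested.

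The number of the 43 genes past the threshold and lower, 0 as reported, was 4 with the dye term, 2 by rank product, 7 at an unadjusted p, and from 0 to 5 when each tumor was left out. The 5, which included Atf4, came without tumor 2, where both arrays had RL in Cy3 and dye and RL cannot be told apart. None was higher under any alternative. As unpaired channels (no replicate block), 0 were lower and 0 higher. Genes below 0 on every array numbered 13 as reported, 1 with median centering (Bhlha15) and 15 to 26 when a tumor was left out. Genes above 0 on every array numbered 4 as reported, 2 without background correction, 0 with median centering, 1 with the mean over probes and 4 to 8 when a tumor was left out. The median, -0.07 as reported, was -0.04 with the dye term and -0.25 with median centering, which moved the median of all genes to -0.11, a difference of -0.14, and -0.11 to -0.03 when a tumor was left out.

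Over all genes, 5 were lower and 1 higher. Lower and higher numbered 172 and 130 with the dye term, 30 and 14 with trend and robust moderation, 12 and 6 without background correction, 0 and 0 with processed signals, with median centering and as unpaired channels, 3 and 0 without a filter, 5 and 0 with the filter on 6 channels, 7 and 2 with the authors' ratios, 45 and 32 by rank product, 774 and 784 at an unadjusted p, and 2 to 887 and 0 to 598 when a tumor was left out.

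Ratios that changed sign were, with the dye term, Atf4 0.0850, Creb3l2 0.0339, Eif2ak3 0.00311, Pdia3 -0.00508, Syvn1 -0.00649. With median centering, these were Dnajb11 -0.13, Creld2 -0.13, Pdia3 -0.14, Pdia6 -0.13, Syvn1 -0.16, Derl1 -0.14, Derl2 -0.15, Ssr1 -0.0195, Trib3 -0.0604, Ppp1r15a -0.15, Asns -0.0976, Ube2j1 -0.00351, Gars -0.0620, Wars -0.0810, Ganab -0.0405, Atf3 -0.0496, Dnajb12 -0.0314, Sec24b -0.0627. With processed signals, these were Syvn1 -0.0100. With the mean over probes, these were Ssr1 -0.00394. When each tumor was left out in turn, ratios that changed sign ranged for Atf4 from -0.37 to 0.17, Chac1 from -0.16 to 0.0535, Creb3l2 from -0.11 to 0.0361, Derl2 from -0.00924 to 0.14, Dnajb11 from -0.0130 to 0.0980, Dnajc3 from -0.10 to 0.0249, Eif2ak3 from -0.19 to 0.0826, Ern1 from -0.12 to 0.0153, Hspa5 from -0.25 to 0.0678, Hyou1 from -0.20 to 0.00802, Pdia3 from -0.0435 to 0.14, Ppp1r15a from -0.0551 to 0.0386, Sec61b from -0.13 to 0.00641, Syvn1 from -0.0350 to 0.13. The cause was not tested. The number of arrays limits precision; all 43 probes were well above background.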
